A study of Rattus norvegicus with 10 samples.

Results

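Complex I of the respiratory chain, the NADH dehydrogenase of mitochondria, was followed through the expression of the nuclear genes for its subunits in adult and aged rat hearts. The members were the genes on a list of 35 nuclear subunits that had a probe set naming no other gene, and 33 of the 35 were found among 14217 named genes. Of these, 30 were read by 1 probe set and 3 (Ndufv3, Ndufa7 and Ndufa9) by several, which were averaged. Ndufs5 and Ndufa10 were not used, since the probe set of the former also names a pseudogene and that of the latter also names Ndufa10l1; those probe sets gave -0.03 ± 0.07 SE and -0.16 ± 0.10 SE on the log2 scale (limma adjusted p over all probe sets 0.875 and 0.376). Hearts came from male rats of the inbred Fischer-344 strain, kept on standard chow and otherwise untreated, at 6 months (adult, arrays numbered 1, 2, 3, 4 and 6) or 24 months (aged, arrays numbered 2, 3, 4, 5 and 6). RNA was read on the Affymetrix whole-genome rat array, 5 arrays per age. The sample labels name whole hearts as the source and the series text names ventricles. No label says that each array is a separate rat, so the spread behind each p-value is that between these samples and may be technical.

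Complex I passes electrons from NADH to ubiquinone and pumps protons across the inner membrane, and heart muscle, with its dense mitochondria, relies on it for most of its ATP. Its matrix arm begins with an NADH-oxidizing tip that carries FMN and a chain of iron-sulphur clusters, continues through a quinone-reducing part where the last cluster meets ubiquinone, and joins a membrane arm that holds the proton pumps. The subunits with cofactors or catalytic sites are conserved from bacteria and are called core subunits, whereas the many accessory subunits surround them and serve assembly and stability. The pump subunits themselves are encoded in mitochondrial DNA and were not analysed here.

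All values below are differences on the log2 scale from the median of the 10 arrays, so 0 is the middle array and no absolute level of a gene is given. The deposited table holds no counts or spot signals, and the number of arrays limits the precision. Array medians lay between -0.01 and 0.01. Of 9 measured cardiomyocyte markers, 2 were called lower and 1 higher in aged hearts (mean marker level -0.03 to 0.17 on the adult arrays and -0.24 to 0.03 on the aged ones). The calls were Myh6 (-1.24) and Ryr2 (-0.55), which were lower, and Myh7 (0.76), which was higher. The 6 that were not called differed by -0.13 (Myl3) to -0.04 (Mb). Markers of other cells moved too. Macrophage markers were called higher in 3 of 8 (-0.37 to 0.01 adult, -0.03 to 0.96 aged), fibroblast markers in 4 of 8 (-0.50 to 0.01, 0.04 to 0.54) and lymphocyte markers in 1 of 8 (-0.29 to 0.00, 0.09 to 0.65). Over all genes 5.09% were called lower and 6.77% higher. The lymphocyte call was Gzma (1.98), while Cd3d (-0.12), Cd79b (-0.10) and Cd4 (-0.08) had lower means. Endothelial markers were called higher in 2 of 7 (-0.11 to 0.01 adult, 0.00 to 0.28 aged) and atrial markers in 2 of 4 (-1.05 to -0.29, 0.16 to 0.83). The endothelial calls were Vwf (0.94) and Tek (0.35), while Kdr (-0.03), Tie1 (-0.02) and Egfl7 (-0.01) had lower means. The atrial calls were Nppa (2.69) and Myl7 (1.45). None of 6 smooth muscle or 6 adipocyte markers was called by limma (0 and 2 of them had an unadjusted p under 0.05). Smooth muscle markers averaged -0.17 to 0.16 on adult and -0.13 to 0.11 on aged arrays. Adipocyte markers stood at 1.13 on adult array 2, with Adipoq at 2.99, against -0.23 to -0.05 on the other adult arrays and -0.01 to 0.13 on the aged ones. The values being centred on each probe set's median, no marker can be read as absent or present. The part of these cell types in the results below was not tested, and in whole tissue fewer cells of a type cannot be told apart from less RNA per cell.

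Genes for complex I subunits were mostly lower in aged hearts, with the largest differences in Ndufs1, Ndufs7 and Ndufv1 of the matrix arm. Of the 33 genes, 29 had a lower mean at 24 months, against 51.8% of all genes. The 6 that fell were Ndufs1, Ndufv1, Ndufs7, Ndufb7, Ndufa9 and Ndufa8. The other 27 did not pass and none rose. A gene is said to have fallen or risen where limma's Benjamini-Hochberg adjusted p over all 14217 genes was under 0.05, which held for 5.09% of all genes in the lower direction against 6 of 33 here. The median difference of the 33 was -0.09 (-6.27%), with a range from -0.38 to 0.11, beside a median of -0.01 over all genes. Leaving out aged array 2 moved it to -0.16, and leaving out aged arrays 3 and 6 to -0.06. In Ndufs1 and Ndufv1 every aged array lay below every adult array, as it did in 4.78% of all genes; the reverse, every aged array above, was seen in no member and in 5.13% of all genes. Of the 36 probe sets behind the members, 5 passed as lower when tested singly, against 3.6% of all probe sets. The number of members that fell moved with the arrays used, as did the share of all genes called lower. It was 2 without adult replicate 3 (3.02% of all genes), aged replicate 5 (2.86%) or aged replicate 6 (3.32%), 3 without adult replicate 2 (3.19%) and 11 without aged replicate 2 (6.61%).

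**Figure D1:**
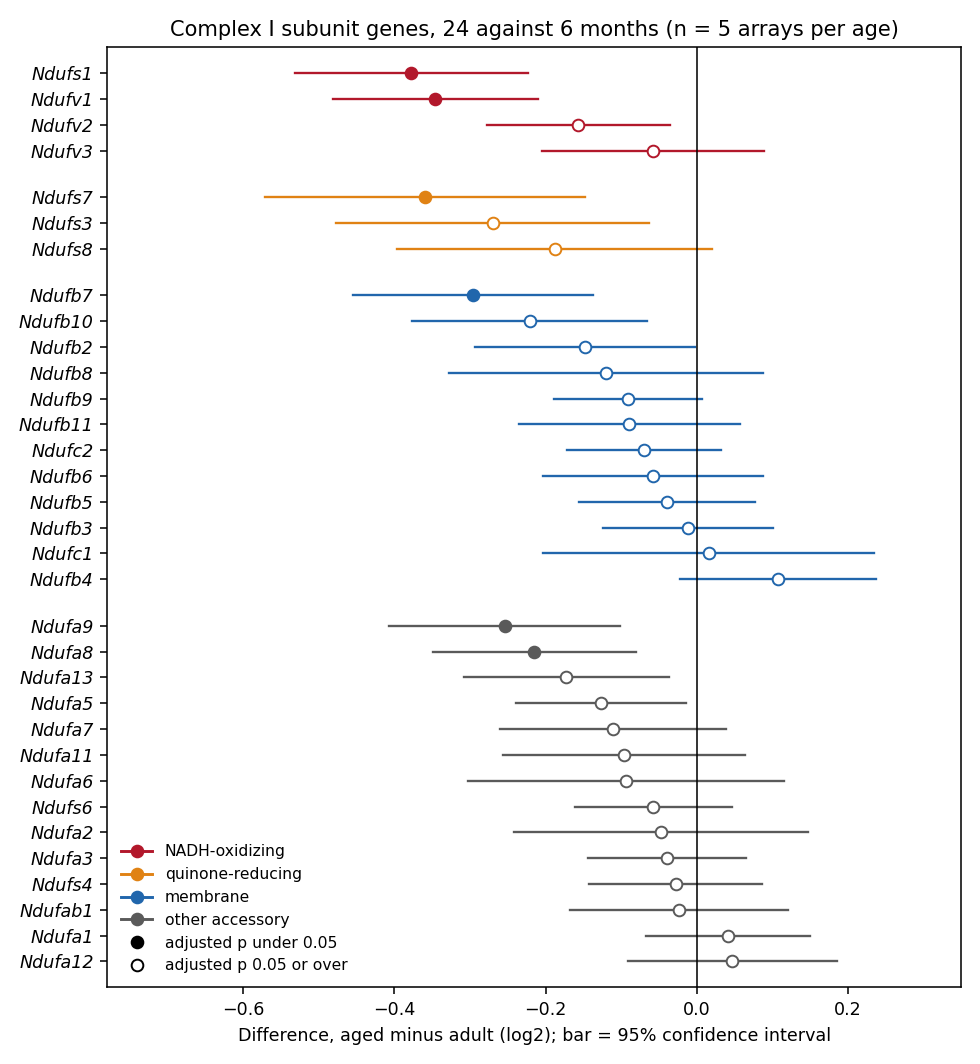
Difference of each complex I gene between aged and adult hearts (x axis, log2, aged minus adult) with its 95% confidence interval, grouped by arm from top to bottom; filled points passed the test (limma adjusted p under 0.05, n = 5 arrays per age). The 6 filled points lie between -0.38 and -0.21, and most membrane and accessory genes lie between -0.15 and 0.11 with intervals that cross 0.

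The stretch around the transcription start was read for the members with an entry in RefSeq's promoter sequences (build GRCr8), to set the genes that fell beside genes that did not. Of the 33 members, 31 had an entry; Ndufa8 and Ndufb9 had none. Motifs of 4 factors known at promoters of respiratory genes were searched on both strands over 300 bases, from 250 before the start to 50 after it: the NRF1 site, TNAAGGTCA for the estrogen-related receptors, CCGGAAG for ETS factors such as GABP, and AANATGGC for YY1. The last of these also holds ATG, the letters of a start codon. Shown are the 5 genes that fell and had an entry, and then Ndufs4 and Ndufc1, which did not pass and carry the YY1 letters at nearly the same place as Ndufs7. Each line runs from 60 bases before the start to 30 from it, and capitals mark a match to any of the motifs.
Ndufs1, chr9:72073576-72073665, minus strand: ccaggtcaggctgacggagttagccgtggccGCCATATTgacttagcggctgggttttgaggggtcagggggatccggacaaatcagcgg
Ndufv1, chr1:210734862-210734951, minus strand: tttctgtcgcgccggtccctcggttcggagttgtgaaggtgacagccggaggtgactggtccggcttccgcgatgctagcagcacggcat
Ndufs7, chr7:10110469-10110558, minus strand: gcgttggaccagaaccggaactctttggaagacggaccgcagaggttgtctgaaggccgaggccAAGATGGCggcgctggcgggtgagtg
Ndufa9, chr4:161374141-161374230, minus strand: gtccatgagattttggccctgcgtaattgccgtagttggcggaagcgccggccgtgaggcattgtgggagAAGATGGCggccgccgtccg
Ndufb7, chr19:41477262-41477351, minus strand: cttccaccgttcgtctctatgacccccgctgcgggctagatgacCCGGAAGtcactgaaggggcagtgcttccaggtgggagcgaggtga
Ndufs4, chr2:47794885-47794974, minus strand: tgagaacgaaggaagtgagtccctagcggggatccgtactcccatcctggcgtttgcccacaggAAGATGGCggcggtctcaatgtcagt
Ndufc1, chr2:137601706-137601795, minus strand: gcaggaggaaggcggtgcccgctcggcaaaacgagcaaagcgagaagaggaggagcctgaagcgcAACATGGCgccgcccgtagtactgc

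The YY1 letters stood in 15 of the 31 complex I promoters (48.4%), against 8.86% of the 11733 promoters of named genes. They were as well in 13 of the 34 promoters read for nuclear subunits of complexes II to V. In 10 of the 15 they lay on the gene's own strand within the first 50 bases of the transcript, as at base 5 in Ndufs7 and Ndufs4, base 6 in Ndufc1 and base 11 in Ndufa9; this placing was seen in 3.49% of all promoters. In Ndufs1 they read on the opposite strand from base -29. Of the 5 promoters of genes that fell 3 held the letters, as did 12 of the 26 others. The median difference was -0.11 for genes with the letters and -0.08 for those without. Whether the letters go with the difference was not tested. Of the other motifs, the ETS letters were in 7 of 31 (15.1% of all promoters), those of NRF1 in 6 (8.49%) and those of the estrogen-related receptors in 1, Ndufb4 (0.673%). No matches of different motifs overlapped. All 6 genes with the NRF1 letters were among those that did not pass, as were 26 of all 31 genes read, so little can be drawn from it. Ndufv1 held none of the 4 motifs in its 300 bases. A match is a description of letters and not a measured site.

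The NADH-oxidizing tip held the 2 members whose ages did not overlap. Every aged array lay below every adult array in 4.78% of all genes, and in 11 of 39 genes of complexes II to V. Ndufs1 encodes the tip's largest subunit, which carries iron-sulphur clusters of the electron path. Its values were 0.23, 0.04, 0.19, 0.33 and 0.18 on adult arrays 1, 2, 3, 4 and 6, and -0.04, -0.36, -0.07, -0.19 and -0.25 on aged arrays 2, 3, 4, 5 and 6. The ages did not overlap, although adult array 2 and aged array 2 lay close together. The gene was 1.30-fold lower in aged hearts (-0.38 ± 0.07 SE, limma adjusted p = 0.00621). Ndufv1 encodes the subunit that binds NADH and FMN, where electrons enter. It read 0.05, 0.10, 0.19, 0.13 and 0.21 on the adult arrays in the same order, and -0.05, -0.38, -0.27, -0.15 and -0.18 on the aged arrays. Again every aged value lay below every adult value, and aged array 3 was the lowest. The difference was 1.27-fold (-0.35 ± 0.06 SE, limma adjusted p = 0.00524). Both calls held in each of the 19 alternative settings tried, with adjusted p from 0.00220 to 0.0276 for Ndufv1 and from 0.00284 to 0.0406 for Ndufs1.

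The other members of the tip were less apart. Ndufv2, whose protein pairs with that of Ndufv1 and carries an iron-sulphur cluster beside the main path, read 0.11, 0.03, 0.09, 0.00 and 0.06 in adult hearts and 0.00, -0.29, -0.07, -0.08 and -0.07 in aged hearts. Its lower mean (-0.16 ± 0.06 SE, limma adjusted p = 0.0905) did not pass, and aged array 3 stood well below the other aged arrays. Ndufv3, a small accessory subunit of the tip, overlapped between the ages, with 0.15, 0.07, 0.02, -0.09 and 0.02 on adult arrays and 0.13, -0.18, -0.03, 0.07 and -0.13 on aged arrays. It gave -0.06 ± 0.07 SE (limma adjusted p = 0.644), and its 95% interval ran from -0.20 to 0.09. Its probe sets differed in sign, 0.03 and -0.15, and neither passed singly (adjusted p over all probe sets 0.902 and 0.185).

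In the quinone-reducing part all 3 genes had lower means, with wider spread between aged arrays. Ndufs7 encodes the subunit with the last iron-sulphur cluster before ubiquinone. It read 0.04, 0.27, 0.12, -0.04 and 0.24 on the adult arrays and 0.05, -0.56, -0.23, -0.22 and -0.21 on the aged arrays. Aged array 2 lay within the adult range and the other aged arrays below it. The gene fell by 0.36 ± 0.10 SE (limma adjusted p = 0.0321), or 1.28-fold; it no longer passed when adult array 2, 3 or 6, or aged array 4, 5 or 6, was left out (adjusted p 0.0554 to 0.0815), while the difference stayed between -0.43 and -0.28. Ndufs3, a core subunit that carries no cofactor, gave 0.15, 0.13, 0.15, 0.00 and 0.00 in adult hearts and 0.12, -0.52, -0.12, -0.16 and -0.23 in aged hearts. Ndufs8, whose ferredoxin-like protein relays electrons to that of Ndufs7, gave 0.06, -0.01, 0.13, 0.01 and 0.17 against 0.27, -0.34, -0.14, -0.11 and -0.25. In Ndufs8 aged array 2 was the highest of all 10 arrays and the other aged arrays were below every adult array. Neither Ndufs3 (-0.27 ± 0.10 SE, limma adjusted p = 0.0880) nor Ndufs8 (-0.19 ± 0.10 SE, 0.242) passed on all arrays, and both passed without aged replicate 2 (0.0170 and 0.0125).

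**Figure D2:**
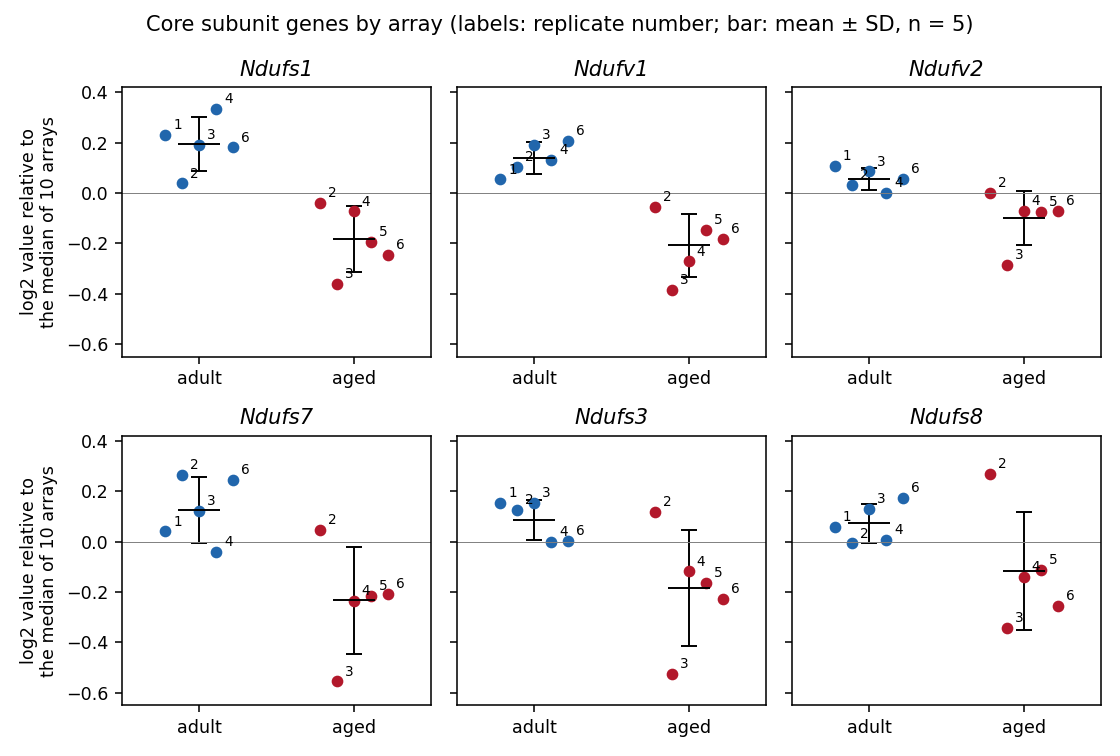
Values of the 6 core subunit genes on each array (y axis, log2 relative to the median of the 10 arrays), adult in blue and aged in red, with replicate numbers beside the points and the mean ± SD (n = 5) in black. In Ndufs1 and Ndufv1 the ages do not overlap; in Ndufs7, Ndufs3 and Ndufs8 aged array 2 sits among or above the adult arrays and aged array 3 is the lowest.

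The membrane arm was read through 10 Ndufb and 2 Ndufc genes. Its median difference was -0.08 (-5.36%), near the -0.09 of all 33 members. Of its 12 genes, 10 had lower means (51.8% of all genes), 1 fell (5.09% of all genes) and 11 did not pass. Ndufb7, whose protein sits on the intermembrane face of the arm, read 0.10, -0.02, 0.06, 0.02 and 0.02 on adult arrays and 0.04, -0.36, -0.30, -0.33 and -0.35 on aged arrays. Of the aged arrays 4 lay tightly together and far below the adult range, and aged array 2 lay inside it. The gene fell by 0.30 ± 0.07 SE (limma adjusted p = 0.0221). It no longer passed when adult array 3, aged array 5 or aged array 6 was left out (0.0547 to 0.0600), and without aged replicate 2 the difference was -0.37 (adjusted p = 0.000734).

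Other membrane arm genes overlapped between the ages. Ndufb10 gave 0.10, 0.02, 0.14, -0.01 and 0.21 in adult hearts and 0.01, -0.37, -0.05, -0.13 and -0.10 in aged hearts (-0.22 ± 0.07 SE, limma adjusted p = 0.0656). Ndufb2 gave 0.07, 0.06, 0.01, -0.01 and 0.07 against 0.10, -0.08, -0.30, -0.06 and -0.20 (-0.15 ± 0.07 SE, limma adjusted p = 0.184). Both passed without aged replicate 2 (0.0378 and 0.0421), which lay within the adult range of the former and above that of the latter. Ndufb4 had the highest mean difference of all members, with 0.02, -0.02, -0.04, -0.17 and -0.06 on adult arrays and 0.23, -0.08, 0.04, 0.03 and 0.05 on aged arrays (0.11 ± 0.06 SE, limma adjusted p = 0.283). This gene is uncertain as an array reading, since the RefSeq gene table lists 11 further loci under its name, 7 of them pseudogenes; 15 of the 33 members have at least 1 such locus, and none of the 6 genes that fell does. The other 8 genes of the arm lay between -0.12 (Ndufb8) and 0.02 (Ndufc1), with adjusted p from 0.226 to 0.946. For Ndufb3 (-0.01, 95% interval -0.12 to 0.10) and Ndufb5 (-0.04, -0.16 to 0.08) the intervals leave out a difference of the size seen in Ndufs1 or Ndufv1.

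The 14 accessory subunits outside the named arms had a median difference of -0.08 (-5.09%). Of these, 12 had lower means (51.8% of all genes) and 2 fell (5.09% of all genes). Ndufa9, a subunit at the junction of the matrix and membrane arms, read 0.19, 0.22, 0.10, 0.14 and -0.08 in adult hearts and 0.01, -0.29, -0.08, -0.13 and -0.21 in aged hearts. Only adult array 6 reached into the aged range. The gene fell by 0.25 ± 0.07 SE (limma adjusted p = 0.0352), and its probe sets gave -0.26 and -0.25. Singly, the former probe set passed and the latter did not (limma adjusted p over all probe sets 0.0378 and 0.122). Ndufa8, on the intermembrane face, read 0.15, 0.07, 0.15, 0.01 and -0.01 against 0.01, -0.31, -0.10, -0.15 and -0.15. Aged array 2 alone overlapped the adult arrays. The gene fell by 0.21 ± 0.06 SE (limma adjusted p = 0.0412). Both calls depended on single arrays: Ndufa9 missed the threshold when any of adult arrays 1 to 4 or aged arrays 3, 5 and 6 was left out (0.0633 to 0.0880), and Ndufa8 when any array but adult 6 or aged 2 was (0.0502 to 0.101).

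Next in order stood Ndufa13, also known as Grim19, which is needed to assemble the complex. Its adult arrays were tight at 0.02, 0.02, 0.04, -0.02 and 0.05, and its aged arrays read 0.09, -0.23, -0.25, -0.20 and -0.16 (-0.17 ± 0.06 SE, limma adjusted p = 0.0945). Aged array 2 was the highest of the 10 and the other aged arrays were below all adult ones; without aged replicate 2 the gene passed (adjusted p = 0.00651). Ndufa5, an accessory subunit of the quinone-reducing part, gave 0.09, 0.06, 0.03, 0.02 and -0.02 against 0.03, -0.22, -0.08, -0.12 and -0.07 (-0.13 ± 0.05 SE, limma adjusted p = 0.140). Ndufa12, an accessory subunit of the tip, was the most positive of this group, at 0.01, -0.13, 0.06, -0.08 and -0.03 in adult hearts and 0.19, -0.16, 0.01, -0.01 and 0.03 in aged hearts (0.05 ± 0.06 SE, limma adjusted p = 0.694). The other 9 ranged from -0.11 (Ndufa7) to 0.04 (Ndufa1), with adjusted p from 0.346 upward. Among them were Ndufs4, an accessory subunit whose loss causes a severe complex I deficiency (-0.03, 95% interval -0.14 to 0.09), and Ndufab1, the mitochondrial acyl carrier protein found in both arms (-0.02, -0.17 to 0.12).

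Set side by side, the arms differed in size of change as long as they were read through the genes that name them. The median difference was -0.25 (-16.0%) over the 4 NADH-oxidizing genes, -0.27 (-17.1%) over the 3 quinone-reducing genes and -0.08 over the 12 membrane genes. The NADH-oxidizing median was thus 0.17 lower than the membrane median. When each module was read with its accessory subunits by textbook assignment, the NADH module of 10 genes had a median of -0.08 and the membrane module of 17 genes one of -0.09, so that the gap between them was 0.01 with the opposite sign. The quinone module of 5 genes stayed at -0.25. In the NADH module the lower values were those of Ndufs1, Ndufv1 and Ndufv2, and the accessory genes Ndufs4, Ndufs6, Ndufa2, Ndufa6, Ndufa7, Ndufa12 and Ndufv3 lay between -0.11 and 0.05.

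A division into core and accessory subunits, chosen after the values were seen, set the genes further apart than the arms did. The 6 core genes (Ndufs1, Ndufv1, Ndufv2, Ndufs3, Ndufs7 and Ndufs8) all had lower means, 3 fell, and their median was -0.31 (-19.2%). Of the 27 accessory genes 23 had lower means, 3 fell, and the median was -0.07 (-4.72%). Over all genes 51.8% had lower means and 5.09% were called lower. Without aged replicate 3 the medians were -0.23 and -0.05, and without aged replicate 2 they were -0.36 and -0.11. Averaged over the 6 core genes, the aged arrays read 0.06, -0.41, -0.15, -0.15 and -0.20, and the adult arrays lay between 0.07 and 0.15. Over the accessory genes the aged arrays read 0.13, -0.16, -0.09, -0.05 and -0.11 against -0.04 to 0.09 in adult hearts, so aged array 2 was above the adult range. The division was made on these values, so it is a description and carries no test. Nuclear subunits of complexes II to V, 39 in number, had a median of -0.09, close to the median of the complex I genes as a whole. Of these 39 genes 10 fell and none rose, beside 5.09% and 6.77% of all genes. With the smallest p among them were Cyc1 of complex III (-0.42), the ATP synthase genes Atp5f1d (-0.27) and Atp5f1b (-0.19), and Cox5a of complex IV (-0.26).

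**Figure D3:**
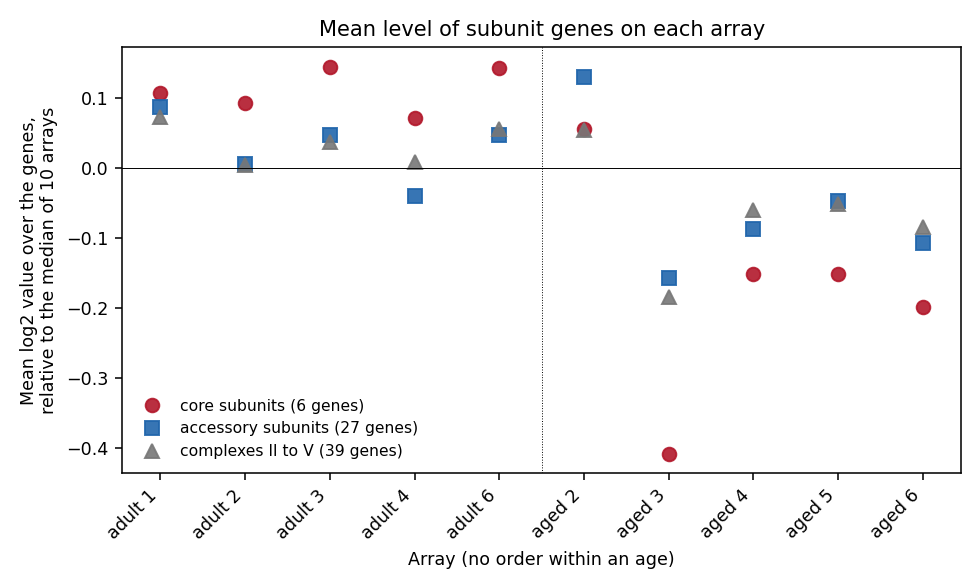
Mean log2 value of the 6 core subunit genes, the 27 accessory subunit genes and 39 subunit genes of complexes II to V on each array (y axis, relative to the median of the 10 arrays; x axis, the arrays by age, in no order within an age). The core genes lie between 0.07 and 0.15 on the adult arrays and at -0.15 or below on 4 of the 5 aged arrays, and aged array 2 is above 0 in all 3 groups.

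The complex I genes moved together from array to array, and most of that movement was among aged hearts. Aged array 2 was the highest of the 10 arrays in 19 of the 33 genes, and aged array 3 was the lowest in 22. Over all named genes these arrays held those places in 8.38% and 15.3%. The values of the 33 genes ran from -0.05 to 0.36 (median 0.12) on aged array 2 and from -0.56 to 0.06 (median -0.18) on aged array 3. Aged array 2 lay above every adult array in 19 genes, against 21.3% of all genes, and aged array 3 lay below every adult array in 28, against 24.6%. On the same 2 arrays the macrophage markers averaged 0.01 and -0.03, the lowest of the aged group. Aged array 3 had the highest lymphocyte marker level at 0.65, but the markers disagreed there. Gzma (3.38), Nkg7 (1.87) and Cd8a (0.85) were high, while Cd3g (-0.46), Cd3e (-0.22), Cd3d (-0.07), Cd79b (-0.07) and Cd4 (-0.05) were negative. Cardiomyocyte markers averaged 0.03 on aged array 2 and -0.24 on aged array 3, the highest and lowest of the aged group. Myh6 stood at -1.30 on aged array 3, and the other cardiomyocyte markers there lay between -0.41 (Ryr2) and 0.23 (Myh7). The part of cell makeup in this spread was not tested.

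**Figure D4:**
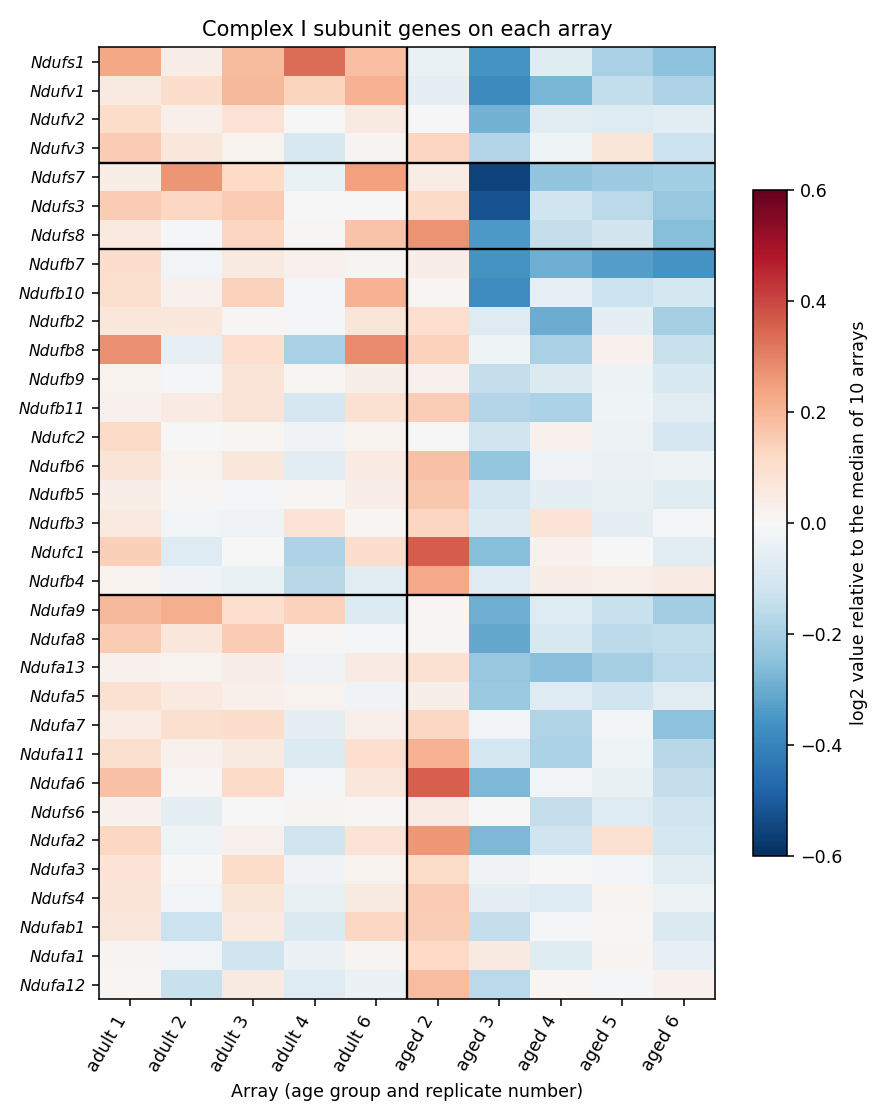
Heat map of the 33 complex I genes (rows, with lines between the NADH-oxidizing, quinone-reducing, membrane and other accessory genes) on the 5 adult and 5 aged arrays (columns); colour gives the log2 value relative to the median of the 10 arrays, red above and blue below. The column of aged array 2 is mostly red and that of aged array 3 mostly blue.

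In 31 of the 33 genes the standard deviation was larger over the aged arrays than over the adult ones, as it was in 54.8% of all named genes. The median ratio of the SDs was 2.00 (0.13 aged against 0.07 adult, medians over the genes), beside 1.08 over all genes. The SD ratio was highest in Ndufa13 (5.04), Ndufb5 (4.99) and Ndufb2 (4.05), all genes with little spread between adult hearts. Only Ndufb8 (0.638) and Ndufa9 (0.977) had the smaller SD in aged hearts. Aged arrays 2 and 3 are the most frequent extremes of these genes, so leaving them out narrows the aged spread by construction. A larger aged SD was then seen in 24 genes without the former (median ratio 1.25, beside 51.5% and 1.03 over all genes) and in 27 without the latter (1.56, beside 45.3% and 0.926). Without both it was seen in 12 (0.837, beside 37.8% and 0.799). The nuclear subunits of complexes II to V showed it too, with a larger SD in aged hearts in 36 of 39 genes and a median ratio of 2.06.

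**Figure D5:**
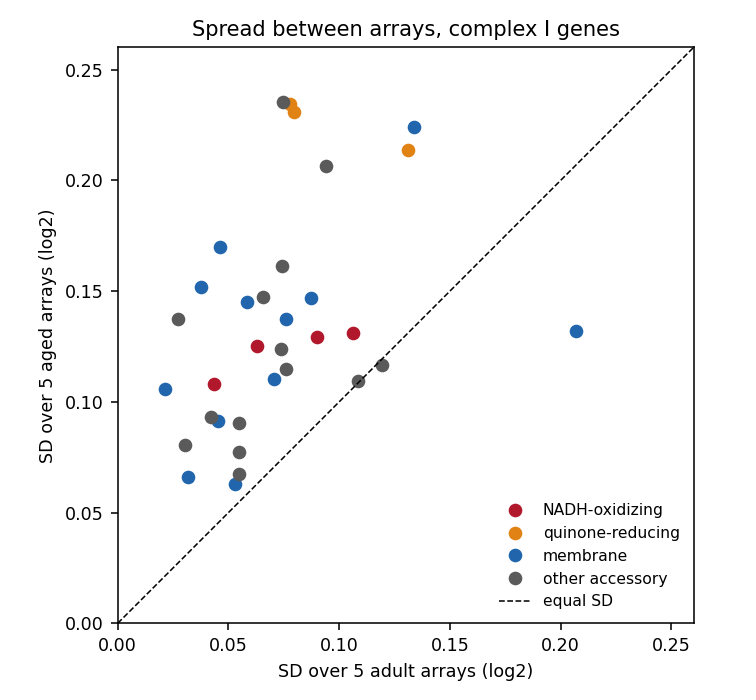
Standard deviation of each complex I gene over the 5 adult arrays (x axis, log2) and the 5 aged arrays (y axis, log2), coloured by arm, with the line of equal SD. All but 2 of the 33 genes lie above the line, and the 3 quinone-reducing genes are among the highest in aged SD.

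Subunits that share a fold or a place were compared last. Ndufa8, Ndufb7 and Ndufb10 belong to the twin cysteine-motif proteins of the intermembrane face, which are folded by disulphide bonds after import; they were grouped after their values were seen. Their differences were -0.21, -0.30 and -0.22, and the former 2 fell. The fourth such subunit, Ndufs5, has no probe set of its own here. The probe set it shares with a pseudogene gave -0.03 ± 0.07 SE (limma adjusted p over all probe sets 0.875). Of the genes that build and serve the complex, 3 of 15 measured assembly factors fell and none rose (median -0.11), beside 5.09% and 6.77% of all genes. Those that fell were Ecsit (-0.53 ± 0.08 SE, limma adjusted p = 0.00267), Ndufaf3 (-0.33, 0.0212) and Tmem186 (-0.19, 0.0432). In Ecsit, a factor of membrane arm assembly, adult arrays lay between 0.09 and 0.39 and aged arrays between -0.54 and -0.09.

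Among suppliers of cofactors and electron acceptors some genes fell, and 1 gene of each list rose. In iron-sulphur cluster assembly, which makes the clusters of the matrix arm, 1 of 14 genes rose and none fell by limma (5 had an unadjusted p under 0.05, 3 of them lower), against 6.77% of all genes called higher. The riser was Iscu, the scaffold on which clusters are built, at -0.60 to -0.14 in adult hearts and 0.14 to 0.53 in aged hearts (0.68 ± 0.09 SE, limma adjusted p = 0.00131). In coenzyme Q synthesis, which makes the electron acceptor, 3 of 12 fell and 1 rose (median -0.18), beside 5.09% and 6.77% of all genes. Coq8a (-0.60 ± 0.07 SE, limma adjusted p = 0.000948), Coq7 (-0.38) and Coq3 (-0.29) fell with no overlap between the ages, and Coq10b, a coenzyme Q binding protein, rose with none (0.67). Over all genes every aged array lay below every adult array in 4.78% and above in 5.13%. Among 12 genes of other enzymes that reduce ubiquinone, 3 fell and 1 rose (median -0.15), again beside 5.09% and 6.77% of all genes. The electron transfer flavoprotein gene Etfb (-0.42) and its ubiquinone oxidoreductase Etfdh (-0.41) fell by about as much as Ndufs1, Sdha of complex II fell by 0.28, and the sulphide oxidase gene Sqor rose (0.21).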

How the data were processed

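The authors' deposited table holds signed log values of 31042 probe sets on 10 arrays, taken here as log2. Its log base, software, background correction and normalization were not given in the sources used here. From the values, each probe set has a median of 0 over the arrays within 1e-06. Probe sets were named through GEO's platform annotation, with symbols updated by gene identifier through the RefSeq table of GRCr8: 20826 had 1 gene (20758 matched by identifier), 436 several and 9780 none. Gene values are means of single-gene probe sets.

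Ages were compared in limma 3.58.1 (lmFit, eBayes, prior degrees of freedom 4.36) in R 4.3.3 over 14217 genes, with no covariate and Benjamini-Hochberg adjustment; intervals are 95%. The fit was tested on simulated data. Python 3.11.15, pandas 2.3.3, numpy 2.4.6 and matplotlib 3.10.9 were used for tables and plots. The members and lists were chosen with earlier results of these data known. Values by array are given for members that passed, for the NADH-oxidizing and quinone-reducing arms, and for the 2 smallest p and the extreme differences of the rest; of other lists, up to 4 called genes. Of the pathway lists, members past the threshold were named. Deviations of same-numbered arrays correlated at 0.03 to 0.15, so the numbers were not treated as pairs. Promoter motifs were chosen after the values were seen.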

Additional observations from a re-analysis of the deposited data

Results flagged for a closer look

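In 4 of 66 groups of 5 arrays (33 genes at 2 ages), 1 array stood apart from the other 4 of its age by Dixon's gap test; chance alone gives about 1 in 20 groups, or 3.3. All 4 are aged groups. Aged array 2 stood above the others in Ndufb7 (0.041, against -0.36 to -0.30 on the other aged arrays), Ndufa13 (0.089, against -0.25 to -0.16) and Ndufb5 (0.16, against -0.10 to -0.04). Aged array 3 stood below the others in Ndufv2 (-0.29, against -0.08 to 0.00).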

How the results depend on the processing

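Besides wider modules, 19 alternative settings were run; 18 were planned and 1, without aged replicates 2 and 3 together, was chosen after seeing the data. The number of complex I genes that fell was 6 on all arrays, beside 5.09% of all genes called lower. It was 3 with the replicate number as a replicate block (Ndufv1, Ndufs1 and Ndufs7), beside 2.45% of all genes. Without aged replicates 3 and 6 together it was 2 (2.50%), and without aged replicates 2 and 3 together 10 (6.07%). When single arrays were left out it ran from 2 to 11, beside 2.86% to 6.61% of all genes. The cause was not tested. In these settings the medians of the arms moved by less than 1 SD between arrays (pooled within ages, and set largely by the aged arrays), yet the quinone-reducing median went from -0.27 to -0.18 without aged replicate 3 and to -0.14 without aged replicates 3 and 6, the membrane median from -0.08 to -0.04 in the latter, and the NADH-oxidizing median from -0.25 to -0.20. The wider modules add accessory genes by construction, and there the NADH-oxidizing median was -0.076 and its gap to the membrane median 0.014. The filter on range leaves the differences as they are and bears on the calls alone. Of the 33 genes 19 were tested there and 5 fell, while 9.24% of all genes tested there were called lower. With 33 genes, single calls were the same in 548 comparisons with the reported fit, which include genes that passed in neither fit. They were lost in 32, gained in 12 and of opposite sign in 21, none of the last in a gene that passed. The 32 losses were in Ndufa8 (11), Ndufa9 (9), Ndufs7 (7) and Ndufb7 (5). The sign turned for Ndufb3 by quantile normalization (0.0026) and the replicate block (0.015). Without aged replicates 3 and 6 it turned for Ndufv3 (0.026), Ndufb3 (0.027), Ndufb5 (0.0042), Ndufb6 (0.011), Ndufs4 (0.0011), Ndufa2 (0.060), Ndufa6 (0.029) and Ndufab1 (0.042), and without aged replicates 2 and 3 for Ndufc1 (-0.011) and Ndufa1 (-0.0074). With single arrays left out, Ndufb3 ran from -0.041 to 0.012, Ndufc1 from -0.071 to 0.083, Ndufab1 from -0.064 to 0.0085 and Ndufa2 from -0.12 to 0.014. Signal over background was not analysed here.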
